A study of Arabidopsis thaliana with 12 samples.

Results

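Small heat shock proteins are small chaperones that form oligomers, bind other proteins as these unfold and hold them until larger ATP-dependent chaperones of the HSP70 and HSP100 families can refold them. Plants have many more of these genes than animals, and their products are sorted to the cytosol, the endoplasmic reticulum, peroxisomes, mitochondria and plastids. In Arabidopsis they are known as genes with low transcript levels in unstressed vegetative tissue that rise steeply on heat, under control of heat shock factors, and some are also made in maturing seeds. The 8 genes described here are HSP17.6C (AT1G53540), HSP17.8 (AT1G07400), AT1G59860, AT1G54050, AT2G19310, HSP15.7 (AT5G37670), HSP22.0 (AT4G10250) and AT1G52560. They were matched by symbol or locus to the probe annotation, and 8 of 8 were measured, each by 1 probe set, among 16550 genes tested.

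Transcripts were measured on 12 Affymetrix arrays from whole Arabidopsis thaliana seedlings aged 7 days, in 4 groups of 3 biological replicates. The groups were the wild type Col-0 without lincomycin (untreated Col-0), Col-0 on 0.5 mM lincomycin, the mutant gun1-101 without lincomycin (untreated gun1-101), and gun1-101 on 0.5 mM lincomycin. GUN1 is a chloroplast protein of the pentatricopeptide repeat family that acts in plastid-to-nucleus signalling, and lincomycin blocks translation on plastid ribosomes. In all groups seeds had 2 days of cold stratification and 8 h of light before 5 days of darkness and 2 days of continuous light, the last step being a model of early chloroplast formation. Lincomycin was in the medium from sowing. One mutant allele was used, GUN1 itself is not analysed here, and the number of seedlings per replicate is not stated.

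Array medians lay between 6.59 and 6.70 log2 units. Col-0 control replicate 1 stood apart from its group, correlating at 0.979 on average with the other 2 arrays of untreated Col-0 over all genes, and its closest array, at 0.992, was gun1-101 control replicate 1. Col-0 lincomycin replicate 3 had the lowest mean correlation of its own group, 0.986. The values are log2 signals of probe sets, so a gene's level is compared between arrays and never with the level of another gene. HSP22.0 lay below the 25th percentile of the array on every control array of both genotypes, so its level in those groups is near the lower end of the measured range. Some small heat shock protein genes are close in sequence, and whether probe sets pick up related transcripts was not tested.

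The 8 genes were selected on measured values: they were drawn together with earlier results of these arrays known, in which heat shock genes stood higher with lincomycin in gun1-101. Their values in comparisons that use gun1-101 arrays are therefore a description, with no test for the 8 genes. Lincomycin against control in Col-0 shares no array with that comparison in its group means. Limma adjusted p-values over all 16550 genes are given there, with a gene called at an adjusted p under 0.05. The spread behind them is estimated from all 12 arrays, so these p-values are not independent of the gun1-101 arrays. A wide spread in any group widens the SE of every comparison. Where a difference is given, it is on the log2 scale with its standard error (SE) from the limma fit to all 12 arrays. In RNA of whole seedlings, fewer cells of a type and less RNA per cell cannot be told apart.

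HSP17.6C encodes a cytosolic small heat shock protein of class I. Its log2 values were 5.23, 4.77 and 5.19 in untreated Col-0, 5.32, 5.84 and 5.81 in lincomycin-grown Col-0, 5.56, 6.22 and 5.90 in untreated gun1-101 and 8.35, 10.05 and 9.35 in lincomycin-grown gun1-101. All 3 mutant arrays with lincomycin stood far above the other 9, untreated Col-0 was the lowest group, and lincomycin-grown Col-0 and untreated gun1-101 overlapped. The difference between lincomycin and control was 3.36 (SE 0.34) in gun1-101, a 10.2-fold difference and the second largest upward difference of the 16550 genes (rank 2). In Col-0 it was 0.59 (SE 0.34, limma adjusted p = 0.294), and this was not called although the groups did not overlap.

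HSP17.8 encodes another cytosolic class I protein. It read 5.55, 5.36 and 6.06 in untreated Col-0, 6.02, 5.94 and 6.31 in lincomycin-grown Col-0, 6.43, 6.05 and 6.83 in untreated gun1-101 and 7.83, 9.92 and 9.26 in lincomycin-grown gun1-101. The lincomycin-grown mutant was again above every other array, while the remaining 3 groups overlapped from one to the next. Its SD over the 3 arrays was 1.07 in lincomycin-grown gun1-101 and between 0.19 and 0.39 in the other groups. The lincomycin difference was 2.57 (SE 0.42) in gun1-101, 5.93-fold, against 0.43 (SE 0.42, limma adjusted p = 0.554) in Col-0.

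AT1G59860, a small heat shock protein gene known here by its locus, had values of 4.79, 5.20 and 5.71 in untreated Col-0, 5.54, 5.47 and 5.40 in lincomycin-grown Col-0, 5.59, 5.19 and 6.30 in untreated gun1-101 and 6.23, 8.23 and 7.63 in lincomycin-grown gun1-101. It was the member whose mutant groups overlapped: gun1-101 lincomycin replicate 1 lay below gun1-101 control replicate 3. All 3 mutant arrays with lincomycin were still above all 3 wild-type arrays with lincomycin. Its difference in gun1-101 was 1.67 (SE 0.43), 3.18-fold, and in Col-0 0.24 (SE 0.43, limma adjusted p = 0.777).

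AT1G54050 gave 4.92, 5.83 and 5.93 in untreated Col-0, 5.18, 4.31 and 5.60 in lincomycin-grown Col-0, 5.58, 5.40 and 5.08 in untreated gun1-101 and 6.36, 8.76 and 7.99 in lincomycin-grown gun1-101. The 3 groups other than the lincomycin-grown mutant overlapped, and Col-0 lincomycin replicate 2 was the lowest array of the 12. The gene's difference between lincomycin and control was 2.34 (SE 0.52) in gun1-101, 5.08-fold, while in Col-0 it was -0.53 (SE 0.52, limma adjusted p = 0.557). The response in the mutant minus that in the wild type was 2.88 (SE 0.73), larger than that of the other 7 genes.

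AT2G19310 was the flattest of the 8 genes. Its values were 6.92, 7.92 and 7.51 in untreated Col-0, 7.23, 7.38 and 7.64 in lincomycin-grown Col-0, 7.78, 7.93 and 7.37 in untreated gun1-101 and 8.60, 9.17 and 8.89 in lincomycin-grown gun1-101. Both wild-type groups and the mutant controls lay in 1 overlapping band, with the lincomycin-grown mutant above it on every array. The difference was 1.20 (SE 0.25) in gun1-101, 2.29-fold, and -0.04 (SE 0.25, limma adjusted p = 0.948) in Col-0.

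AT1G52560 read 5.59, 5.22 and 5.06 in untreated Col-0, 6.09, 6.27 and 5.25 in lincomycin-grown Col-0, 6.19, 5.34 and 4.94 in untreated gun1-101 and 7.45, 8.72 and 8.21 in lincomycin-grown gun1-101. Its other 3 groups overlapped, and the lincomycin-grown mutant stood above them all. The lincomycin difference was 2.64 (SE 0.38) in gun1-101, 6.22-fold, and 0.58 (SE 0.38, limma adjusted p = 0.355) in Col-0.

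HSP15.7 encodes the small heat shock protein of the peroxisome matrix. Its values were 5.31, 6.07 and 5.13 in untreated Col-0, 6.44, 6.72 and 7.54 in lincomycin-grown Col-0, 6.60, 6.61 and 6.35 in untreated gun1-101 and 8.26, 9.88 and 9.64 in lincomycin-grown gun1-101. The Col-0 controls were below every other array, untreated gun1-101 and lincomycin-grown Col-0 overlapped, and the lincomycin-grown mutant was above all. HSP15.7 rose 2.63-fold with lincomycin in Col-0, a log2 difference of 1.39 (SE 0.40, limma adjusted p = 0.0373). The call ended without 6 of the 12 arrays left out singly (adjusted p up to 0.124), which were Col-0 control replicates 1 and 3, Col-0 lincomycin replicates 2 and 3, and gun1-101 control replicates 1 and 2. It also ended without both set-aside Col-0 arrays, where the difference was 0.98 (limma adjusted p = 0.165). In gun1-101 the difference was 2.74 (SE 0.40), 6.67-fold.

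HSP22.0 encodes a small heat shock protein of the endoplasmic reticulum. It gave 3.48, 3.16 and 3.09 in untreated Col-0, 4.31, 4.60 and 4.21 in lincomycin-grown Col-0, 3.45, 3.84 and 3.31 in untreated gun1-101 and 5.34, 6.52 and 6.27 in lincomycin-grown gun1-101. Its 2 control groups overlapped, lincomycin-grown Col-0 lay above both of them, and the lincomycin-grown mutant lay above that. HSP22.0 rose with lincomycin in Col-0, by 1.13 (SE 0.27, limma adjusted p = 0.0145), 2.19-fold. The difference in gun1-101 was 2.51 (SE 0.27), 5.71-fold. Leaving out 1 array moved its adjusted p past the threshold 3 times, to 0.0519 and 0.0536 on dropping replicates 2 and 3 of untreated Col-0 in turn, and to 0.0646 on dropping Col-0 lincomycin replicate 2, with differences of 1.01 to 1.09.

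**Figure D1:**
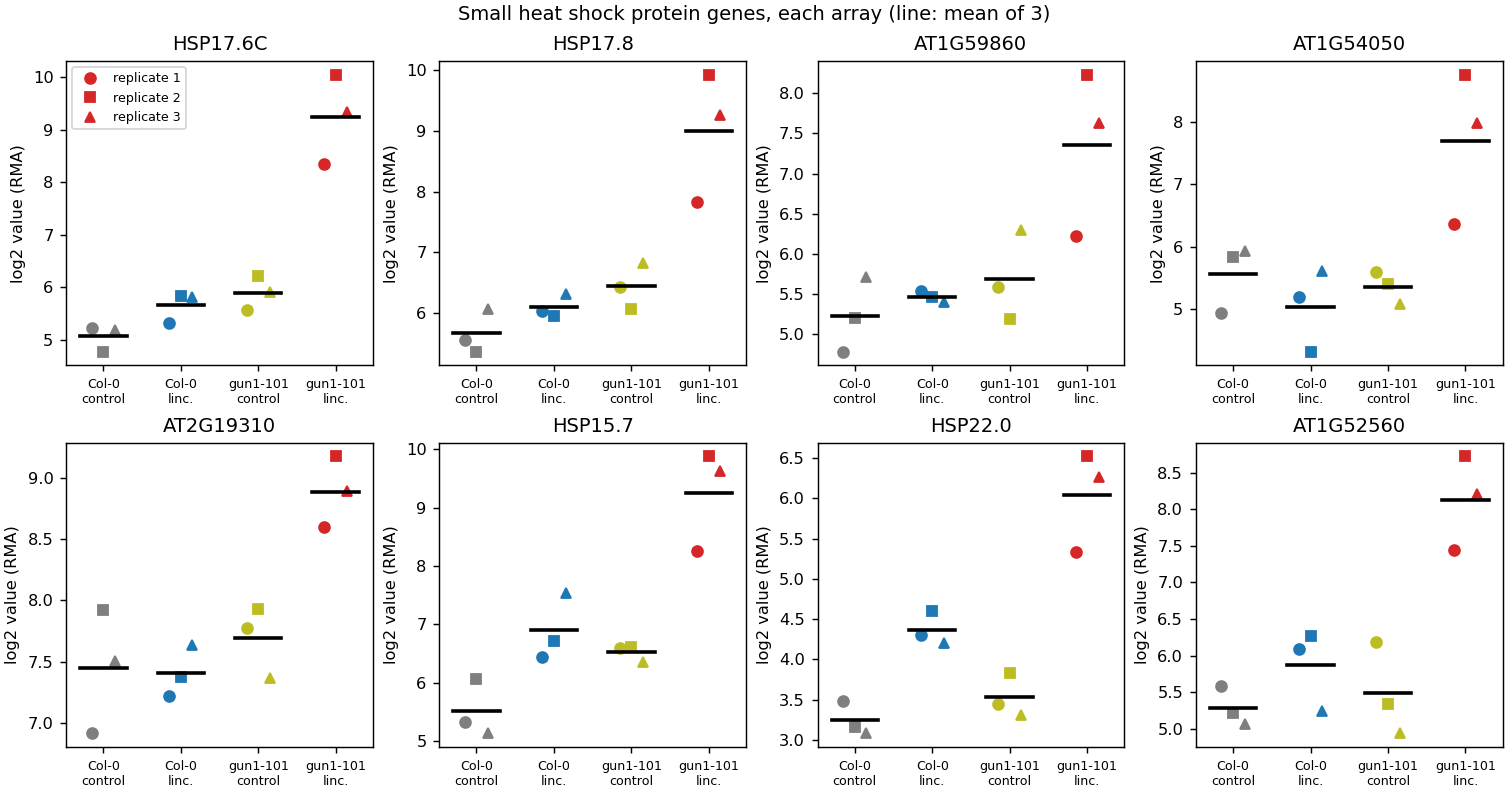
Log2 RMA value of each of the 8 small heat shock protein genes on each of the 12 arrays, in 1 panel per gene, with symbols for replicate number and a line at the mean of the 3 arrays of a group. The lincomycin-grown gun1-101 arrays are the highest group in all 8 panels, with HSP17.6C at 8.35 to 10.05 there against 4.77 to 6.22 on the other 9 arrays.

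Lincomycin in Col-0 asked how the genes respond in the wild type when plastid translation is blocked. Of the 8 genes 2 rose, HSP15.7 and HSP22.0, and 0 fell. The background for this comparison was 7.15% of all genes called higher and 7.19% called lower. No gene but these 2 had an unadjusted p under 0.05, beside 4691 of all 16550 genes. The median difference of the 8 genes was 0.50, against 0.02 over all genes tested. Values did not overlap between the Col-0 groups for 3 of the 8 genes, HSP17.6C, HSP15.7 and HSP22.0, all higher with lincomycin, against 14.8% of all genes. The 2 genes that rose encode proteins of the peroxisome and the endoplasmic reticulum, and neither HSP17.6C nor HSP17.8, the named cytosolic members, was called. Leaving out 1 array gave between 0 and 2 called, with 0 without Col-0 control replicate 3 or Col-0 lincomycin replicate 2, and leaving out both set-aside Col-0 arrays gave 1, HSP22.0. With only the Col-0 arrays fitted 1 was called, and HSP15.7 was not (limma adjusted p = 0.0526).

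Lincomycin in gun1-101 is the comparison known when the genes were drawn together. All 8 were called higher there, beside a background of 10.9% of all genes called higher, and the count is printed as a description. Differences ran from 1.20 in AT2G19310, which ranked 362 from the top of the 16550 genes, to 3.36 in HSP17.6C. Their median was 2.54. Between them stood HSP15.7 at 2.74 (rank 10), AT1G52560 at 2.64 (rank 11), HSP17.8 at 2.57 (rank 14), HSP22.0 at 2.51 (rank 17), AT1G54050 at 2.34 (rank 23) and AT1G59860 at 1.67 (rank 108).

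Without lincomycin, the differences of gun1-101 from Col-0 were 1.02 (SE 0.40) for HSP15.7, 0.83 (SE 0.34) for HSP17.6C and 0.78 (SE 0.42) for HSP17.8, and they ran from -0.21 to 0.46 for the other 5 genes. HSP17.6C and HSP15.7 were higher on all 3 mutant control arrays than on all 3 wild-type ones, 2 of 8 genes beside 8.18% of all genes. Limma called 0 of the 8 genes here, and 2 had an unadjusted p under 0.05, beside 2103 of all 16550 genes. It called 0.0121% of all genes higher and 0.00604% lower. Without both set-aside Col-0 arrays, 2854 of all genes were called and still 0 of the 8.

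With lincomycin, the 8 genes were all called higher in gun1-101 than in Col-0, beside a background of 5.12% of all genes called higher and 4.45% called lower. The differences were 3.59 for HSP17.6C, 2.91 for HSP17.8, 2.67 for AT1G54050, 2.36 for HSP15.7, 2.26 for AT1G52560, 1.89 for AT1G59860, 1.67 for HSP22.0 and 1.47 for AT2G19310, with SEs of 0.25 to 0.52. No array of the 2 groups overlapped for any of the 8 genes, beside 12.9% of all genes that were higher without overlap. This comparison shares the lincomycin-grown mutant arrays with the one that was known, so it repeats part of it.

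**Figure D2:**
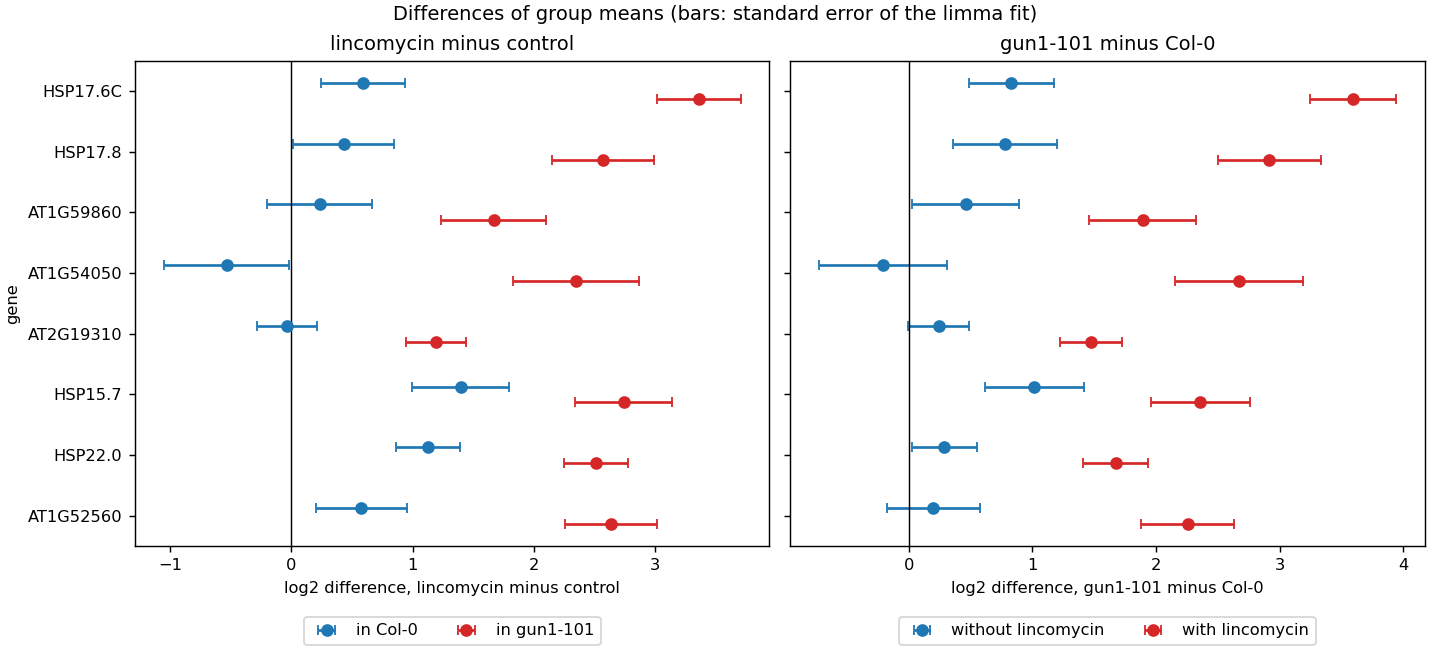
Log2 differences of the 8 small heat shock protein genes with bars of 1 SE from the limma fit, for lincomycin minus control in each genotype (left) and for gun1-101 minus Col-0 with and without lincomycin (right). The differences in gun1-101 run from 1.20 to 3.36, and those in Col-0 from -0.53 to 1.39.

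The difference between the 2 lincomycin responses, mutant minus wild type, was above 0 for all 8 genes. It was 2.88 (SE 0.73) for AT1G54050, 2.76 (SE 0.49) for HSP17.6C, 2.14 (SE 0.59) for HSP17.8 and 2.06 (SE 0.53) for AT1G52560. It was smaller for AT1G59860 (1.43), HSP22.0 (1.38), HSP15.7 (1.34) and AT2G19310 (1.23). HSP15.7 and HSP22.0, the genes that rose in the wild type, were thus among the 4 with the smaller values. Limma called HSP17.6C, AT1G54050, HSP22.0 and AT1G52560, 4 of the 8, beside 4.01% of all genes called higher and 2.95% called lower. Leaving out 1 array gave between 1 and 7 called: 7 without gun1-101 lincomycin replicate 1, 6 without Col-0 lincomycin replicate 3 or Col-0 control replicate 1, 2 without gun1-101 control replicate 1, and 1 without any of the other 8 arrays. Leaving out both set-aside Col-0 arrays gave 4. These counts are again a description, because the mutant arrays chose the genes.

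**Figure D3:**
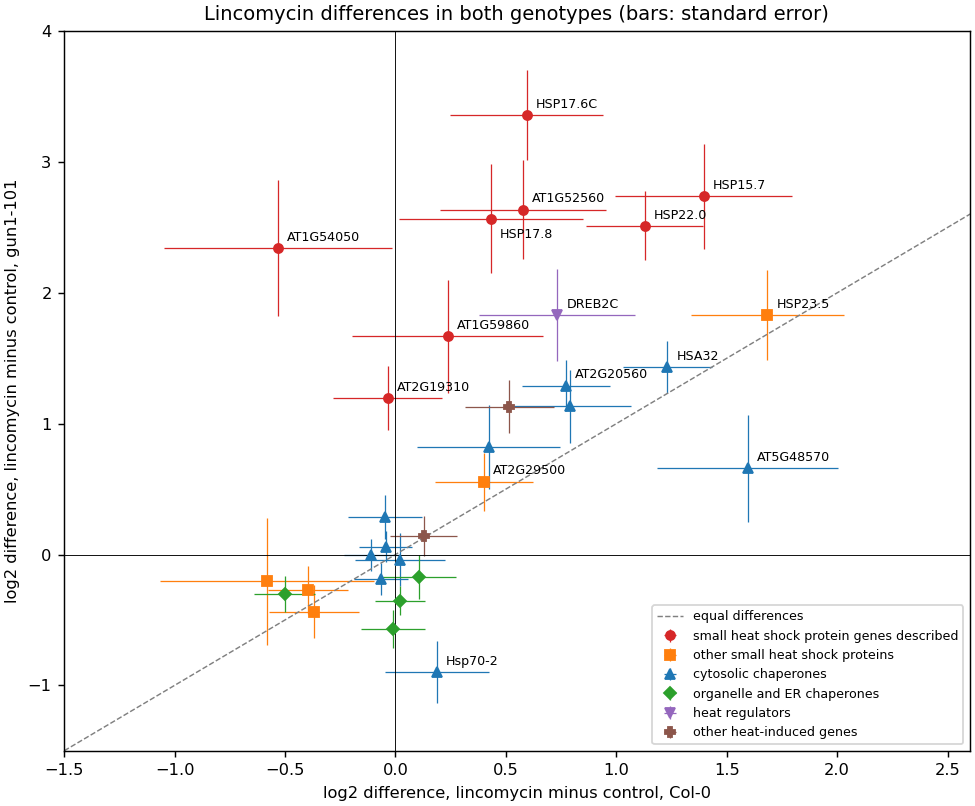
Lincomycin difference in gun1-101 (vertical axis, log2) against that in Col-0 (horizontal axis, log2) for the 8 small heat shock protein genes and the 23 other measured heat and chaperone genes, with bars of 1 SE and a dashed line of equal differences. All 8 genes lie above that line, as their values of 1.23 to 2.88 for the difference of responses state.

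Markers of tissues moved between the groups as well. Leaf and cotyledon markers, 4 measured of 8 listed, fell in 4 of 4 with lincomycin in Col-0 and in 1 of 4 in gun1-101. The shares of all genes called lower were 7.19% and 9.51%. With lincomycin 4 of 4 were higher in gun1-101 than in Col-0, beside 5.12% of all genes. The mean log2 level of these markers was 10.75 to 10.84 in untreated Col-0, 8.23 to 8.76 in lincomycin-grown Col-0, 10.64 to 10.76 in untreated gun1-101 and 10.21 to 10.36 in lincomycin-grown gun1-101. These markers are genes of photosynthesis. Of 3 measured stomatal lineage markers, FMA and SPCH fell in lincomycin-grown Col-0 (-0.76 and -0.70, limma adjusted p = 0.0194 and 0.0268), and MUTE rose in gun1-101 (0.78, limma adjusted p = 0.0317). SPCH was also higher in gun1-101 than in Col-0 with lincomycin (0.72, limma adjusted p = 0.0321), a comparison in which the differences of all 3 were positive (median 0.67). Each of these 4 calls ended without 3 or 4 of the 12 arrays left out singly, all of them arrays of the groups compared. Their mean level was 7.68 to 7.91, 7.17 to 7.42, 7.51 to 7.75 and 7.47 to 8.10 in the same order of groups. Root markers PYK10 and EXPA7, 2 of 7 measured, were called in 0 of the 5 comparisons by limma, with 0 at an unadjusted p under 0.05, and their mean level spanned 9.21 to 9.93 over all arrays. The part of these shifts in the levels of the 8 genes was not tested.

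The 8 genes had similar profiles across the arrays. Over the 28 pairs, the correlation across the 12 arrays had a median of 0.890 and ran from 0.763 to 0.972. The points share their 4 groups, so most of this follows the group means. The 8 genes were also drawn together for high values on the lincomycin-grown mutant arrays, and that choice favours high correlations. Pairs of other genes were not read, and the correlations are descriptive. Among deviations from the group means the median was 0.568, from 0.114 to 0.937, the highest being that of HSP17.8 with AT1G59860. HSP17.6C with HSP22.0 had 0.845.

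The 3 arrays of lincomycin-grown gun1-101 stood in the same order for all 8 genes. Replicate 1 was the lowest array in 8 of 8 genes and replicate 2 the highest in 8 of 8, with replicate 3 between. The same order held for 4 of the 5 other measured small heat shock protein genes and for 9 of the 11 measured cytosolic chaperone genes, so it was not particular to the 8. It also held for 2 of 2 root markers, 2 of 2 other heat-induced genes and 2 of 4 organelle and endoplasmic reticulum chaperones. None of the measured seed maturation, mitochondrial stress, stomatal lineage or leaf and cotyledon genes had it, nor did DREB2C. Over all genes, 32.0% were lowest on replicate 1 and 32.4% were highest on replicate 2, and the share with both was not counted. The 3 arrays spanned 7.83 to 9.92 for HSP17.8 and 6.36 to 8.76 for AT1G54050. AT2G19310 had the smallest SD of the 8 in this group, 0.29, and AT1G54050 the largest, 1.23. The mean over the 8 genes was 7.30, 8.40 and 8.91 log2 units on the lowest, middle and highest of these arrays, against 5.22 to 5.46 in untreated Col-0, 5.77 to 5.97 in lincomycin-grown Col-0 and 5.76 to 5.90 in untreated gun1-101. The latter 2 groups thus overlapped in this mean, and both lay above untreated Col-0. What set replicates 1 and 2 apart was not tested.

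**Figure D4:**
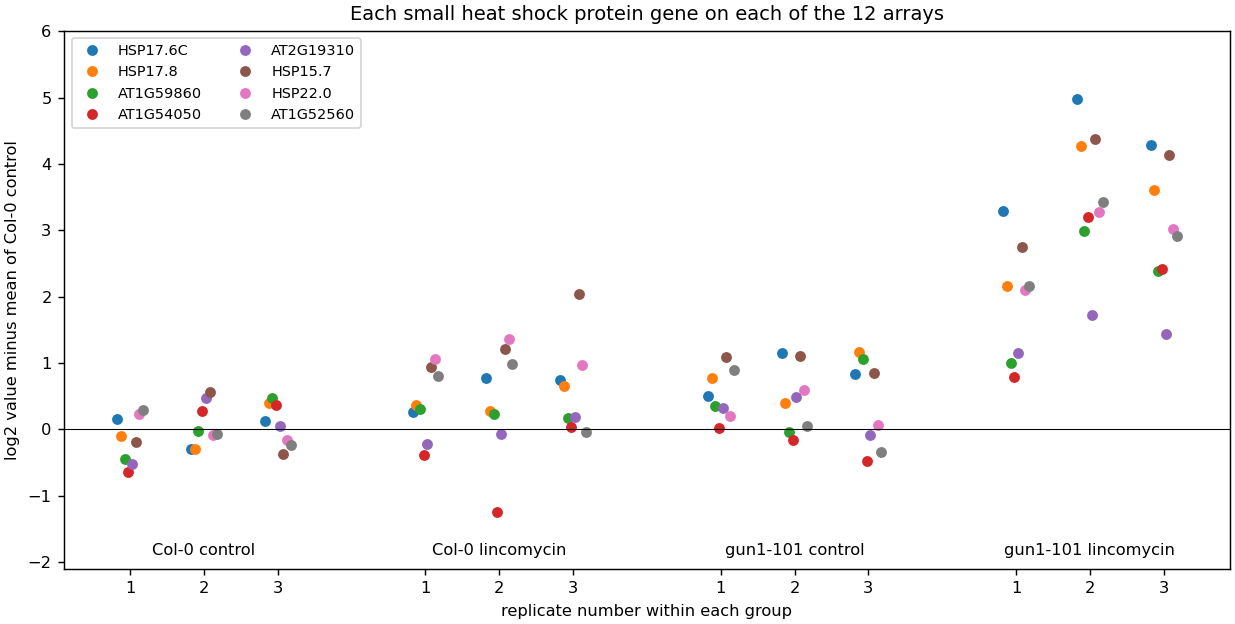
Log2 value of each of the 8 genes minus its mean in untreated Col-0, for every array, with colours for genes and replicate number on the horizontal axis within each group. In lincomycin-grown gun1-101 all 8 genes have their lowest value on replicate 1 and their highest on replicate 2, whereas in the other 3 groups no array is lowest for all genes.

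Of 11 further small heat shock protein loci listed, 5 were measured. HSP23.5 (AT5G51440), a mitochondrial small heat shock protein, was the measured one that rose. Its values were 6.39, 7.00 and 7.01 in untreated Col-0, 8.12, 8.28 and 9.06 in lincomycin-grown Col-0, 8.12, 7.91 and 8.18 in untreated gun1-101 and 9.14, 10.67 and 9.89 in lincomycin-grown gun1-101. The Col-0 controls of HSP23.5 were below every other array, and the lincomycin-grown mutant was above every other. With lincomycin it was higher in gun1-101 than in Col-0 by 1.42 (SE 0.34, limma adjusted p = 0.024). That call ended without 4 of the 12 arrays left out singly (adjusted p up to 0.106). HSP23.5 rose by 1.68 in Col-0 (SE 0.34, limma adjusted p = 0.00707) and by 1.83 in gun1-101 (SE 0.34, limma adjusted p = 0.00431), and the 2 responses differed by 0.15 (SE 0.49, limma adjusted p = 0.876). For the 8 genes that difference of responses was 1.23 or more, but they were drawn together for high values on the lincomycin-grown mutant arrays. That choice favours a large value, so HSP23.5 and the 8 genes are not a like comparison.

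The remaining 4 measured loci of that list were not called in any of the 5 comparisons of the fit to all 12 arrays. AT2G29500 read 9.71, 9.77 and 9.11 in untreated Col-0, 10.13, 10.02 and 9.63 in lincomycin-grown Col-0, 10.18, 10.12 and 10.10 in untreated gun1-101 and 10.29, 11.06 and 10.72 in lincomycin-grown gun1-101, so that its lincomycin-grown mutant arrays were the highest but the groups lay within 2 log2 units. Its difference was 0.40 in Col-0 (limma adjusted p = 0.27), 0.56 in gun1-101 (limma adjusted p = 0.0959) and 0.76 between genotypes with lincomycin (limma adjusted p = 0.0512). That last value was past the threshold with the replicate block (limma adjusted p = 0.0407), with array weights (0.0347), with dim genes left out (0.0425), with a variance trend (0.0341) and without Col-0 control replicate 1, Col-0 control replicate 3 or gun1-101 lincomycin replicate 1 (0.0299 to 0.0442). Its difference in Col-0 was called with array weights (limma adjusted p = 0.0411), and that in gun1-101 without gun1-101 lincomycin replicate 1 (limma adjusted p = 0.049). AT4G21870, AT5G54660 and AT5G47600 had differences in gun1-101 of -0.21, -0.27 and -0.44, and in Col-0 of -0.58, -0.40 and -0.37. Without both set-aside Col-0 arrays AT4G21870 was called lower in Col-0 (-1.36, limma adjusted p = 0.0445), as it was with array weights (-1.14, limma adjusted p = 0.0468). Over the 5 loci the median difference in gun1-101 was -0.21 and in Col-0 -0.37.

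The other heat and chaperone lists, chosen with results known as well, gave 23 measured genes together with those 5. With lincomycin in gun1-101, 6 of the 23 rose and 3 fell, with a median of 0.06, against 10.9% and 9.51% of all genes and a median of -0.06 over all genes. In Col-0, 4 rose and 1 fell, with a median of 0.11, beside 7.15% and 7.19% of all genes. Without lincomycin 1 of the 23 was called higher in gun1-101 than in Col-0 and 0 lower, with a median of 0.19. The background was 0.0121% and 0.00604% of all genes. There 9 of the 23 had an unadjusted p under 0.05, beside 2103 of all 16550 genes. Of the 11 cytosolic chaperones 7 had such a p, with a median difference of 0.59. Between genotypes with lincomycin, 7 were higher in gun1-101 and 0 lower by limma, beside 5.12% and 4.45% of all genes, with a median of 0.43. Of the 23, 16 had an unadjusted p under 0.05, beside 4134 of all 16550 genes. The difference of responses was called for 0 of the 23 by limma, 4 having an unadjusted p under 0.05, beside 4688 of all 16550 genes. Its median was 0.13. For the 8 genes the median was 1.74, but they were drawn together for high values on the lincomycin-grown mutant arrays. That choice favours a large value, so these medians are not a like comparison.

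Among the cytosolic chaperones and co-chaperones, 11 were measured. With lincomycin in gun1-101, 3 of these rose and 1 fell, beside 10.9% and 9.51% of all genes. In Col-0, 3 rose and 0 fell, beside 7.15% and 7.19% of all genes. HSA32, a heat-induced protein that prolongs acquired thermotolerance, rose by 1.43 in gun1-101 (limma adjusted p = 0.000865) and by 1.23 in Col-0 (limma adjusted p = 0.00181). AT2G20560, a DnaJ-type gene, rose by 1.29 and 0.77 (limma adjusted p = 0.00137 and 0.0221), the Col-0 call ending without Col-0 control replicate 2 or Col-0 lincomycin replicates 1 or 2. Fes1A, a cytosolic co-chaperone of HSP70, rose by 1.13 in gun1-101 (limma adjusted p = 0.0151, up to 0.0523 without gun1-101 control replicate 1 or lincomycin replicate 3), and its Col-0 difference of 0.79 was not called (limma adjusted p = 0.0809). AT5G48570 rose in Col-0, by 1.59 (limma adjusted p = 0.0227), a call that ended without Col-0 control replicates 2 or 3 or Col-0 lincomycin replicates 1 or 2 (adjusted p up to 0.0984). Its 3 gun1-101 controls, at 8.45, 8.65 and 8.91, overlapped with both lincomycin groups. Between genotypes with lincomycin HSA32, AT2G20560 and Fes1A were higher in gun1-101, by 0.93, 1.11 and 1.07 (limma adjusted p = 0.0133, 0.00471 and 0.032). The call of HSA32 ended without 2 of the 12 arrays left out singly, and that of Fes1A without 5.

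Hsp70-2, a cytosolic HSP70, had a pattern unlike that of the 8 genes. Its values were 6.22, 6.02 and 5.86 in untreated Col-0, 6.16, 6.35 and 6.15 in lincomycin-grown Col-0, 8.41, 8.22 and 8.29 in untreated gun1-101 and 6.80, 7.99 and 7.43 in lincomycin-grown gun1-101. The gun1-101 controls were the highest group and overlapped with no other. Hsp70-2 was higher in gun1-101 than in Col-0 without lincomycin, by 2.27 (SE 0.24, limma adjusted p = 0.00934), and with it, by 1.19 (limma adjusted p = 0.00851), and it fell by 0.90 with lincomycin in gun1-101 (limma adjusted p = 0.0202). The first of these calls ended without any of 5 single control arrays (adjusted p up to 0.0944), all but Col-0 control replicate 1, and the last without gun1-101 control replicates 1 or 3 or lincomycin replicates 1 or 3 (adjusted p up to 0.0632). Hop3, a co-chaperone that links HSP70 and HSP90, was higher in lincomycin-grown gun1-101 than in lincomycin-grown Col-0, by 1.41 (limma adjusted p = 0.0187, up to 0.0662 without replicate 2 or 3 of the lincomycin-grown mutant), and its lincomycin difference in the mutant of 0.82 was not called (limma adjusted p = 0.0944).

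Of the 25 listed heat shock factors and heat regulators, DREB2C was the 1 measured. DREB2C encodes a transcription factor of the DREB2 family that is induced by heat. It rose by 1.83 with lincomycin in gun1-101 (SE 0.35, limma adjusted p = 0.00485), from 5.98 ± 0.50 to 7.81 ± 0.27 (SD, n = 3), and its difference in Col-0 was 0.73 (limma adjusted p = 0.2). With lincomycin DREB2C was higher in gun1-101 than in Col-0 by 1.62 (limma adjusted p = 0.0139, up to 0.0674 with 1 array left out). Within the lincomycin-grown mutant its lowest value, 7.51, was on replicate 2, where the 8 genes were highest. HSFA2, HSFA1A, HSP101 and HSP90.1 are not analysed here.

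Of 25 listed chaperones of the organelles and the endoplasmic reticulum outside the small heat shock protein family, 4 were measured, and limma called 0 of these 4 higher with lincomycin in either genotype. At an unadjusted p under 0.05 there were 1 in Col-0 and 2 in gun1-101, the genes that fell, beside 4691 and 5809 of all 16550 genes. Of the 4, 2 fell with lincomycin in gun1-101, AT4G16660 by 0.57 and ATERDJ3B, a J-domain co-chaperone of the endoplasmic reticulum, by 0.35 (limma adjusted p = 0.0182 and 0.0466). Limma called 9.51% of all genes lower there. The call of AT4G16660 ended without 3 single arrays (gun1-101 control replicates 1 and 2, lincomycin replicate 3), and that of ATERDJ3B without 10 of the 12, the exceptions being Col-0 lincomycin replicate 3 and Col-0 control replicate 1. BIP1, the HSP70 of the endoplasmic reticulum, had a difference of -0.17 there (limma adjusted p = 0.492). HSP22.0, whose protein is also placed in the endoplasmic reticulum, stood at 2.51 in the same comparison. However, HSP22.0 was among the genes drawn together for high values on the lincomycin-grown mutant arrays. That choice favours a large value, so HSP22.0 and these chaperones are not a like comparison. Cpn60beta2, a subunit of the plastid chaperonin, fell in Col-0 by 0.50 (limma adjusted p = 0.0293), a call that ended without any of 5 of the 6 Col-0 arrays, all but control replicate 1. Of 2 other heat-induced genes, AT1G26800 rose in gun1-101, by 1.13 (limma adjusted p = 0.00337), and BZIP28, a transcription factor of the endoplasmic reticulum stress response, was not called (0.14, limma adjusted p = 0.535).

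**Figure D5:**
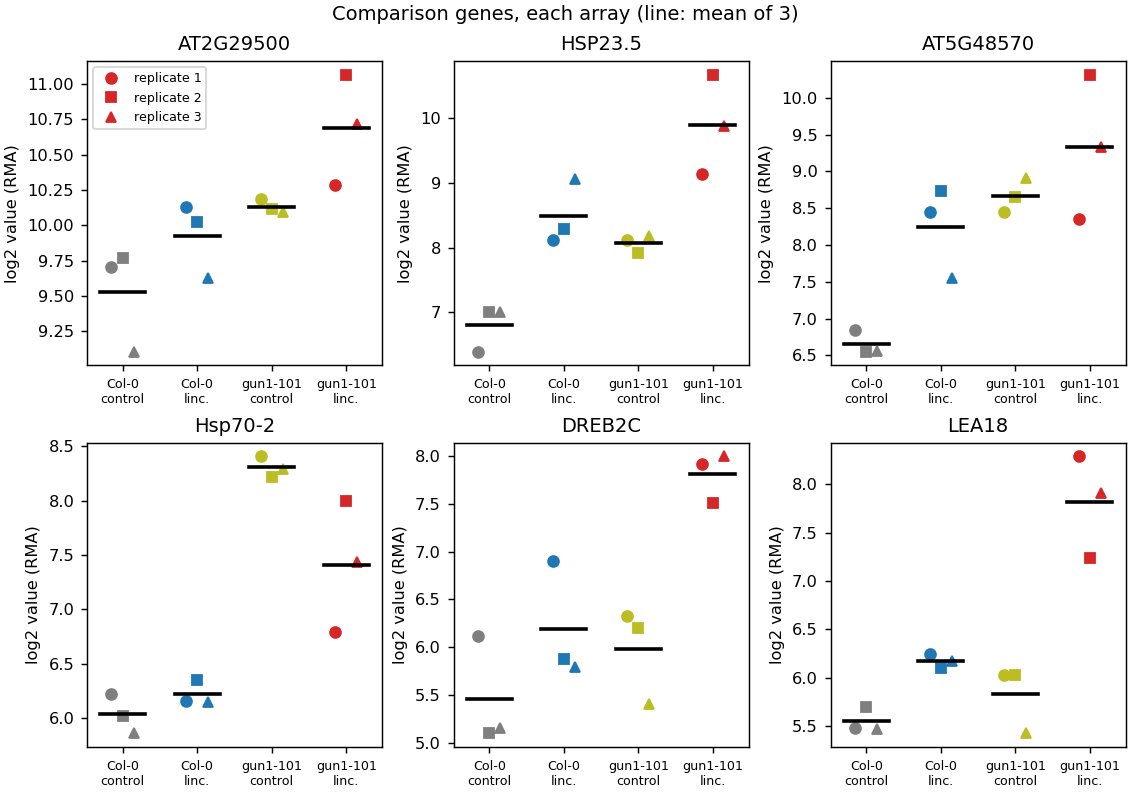
Log2 RMA value on each of the 12 arrays for 6 genes that are not among the 8, with symbols for replicate number and a line at the mean of the 3 arrays of a group. Vertical axes differ between panels and do not start at 0, and Hsp70-2 is highest in untreated gun1-101, at 8.22 to 8.41, where HSP23.5 and DREB2C are not.

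The genes outside the 8 whose pattern over the 12 arrays was most like the mean of their standardised profiles were AT1G30070 (correlation 0.972), AT1G01240 (0.967), AT5G35320 (0.959), AT3G51370 (0.958), AT5G25450 (0.954), AT2G20560 (0.946), AT1G22430 (0.945) and AT1G21550 (0.944). These correlations describe arrays that share 4 groups. AT5G25450 had the largest difference of them with lincomycin in gun1-101, 2.59 (SE 0.34), its mutant arrays reading 5.64, 5.68 and 6.42 when untreated and 8.01, 9.38 and 8.12 when grown on lincomycin. AT1G21550 read 3.58, 3.73 and 4.00 in lincomycin-grown Col-0 and 5.43, 7.39 and 5.69 in lincomycin-grown gun1-101, and like the 8 genes it was highest on replicate 2 and lowest on replicate 1 of the last group. Deviations from group means correlated with those of the 8 genes at 0.503 to 0.824 over these genes. Hsp70-2 had a correlation of 0.383 over the 12 arrays and 0.832 in those deviations.

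Genes next to the 8 on the chromosome were also read. Of 16 flanking protein-coding genes 9 were measured. With lincomycin in gun1-101, 2 of them rose and 0 fell by limma, beside 10.9% and 9.51% of all genes. In Col-0, 1 rose and 2 fell, beside 7.15% and 7.19% of all genes. Whether these counts differ from those shares was not tested. In gun1-101 AT1G52565, the neighbour of AT1G52560, rose by 1.70 (limma adjusted p = 0.00349), and AT5G37680, next to HSP15.7, rose by 0.57 (limma adjusted p = 0.0394). In Col-0 AT5G37680 fell by 0.89 (limma adjusted p = 0.00577) while HSP15.7 rose, and AT1G53541, next to HSP17.6C, fell by 0.83 (limma adjusted p = 0.00155). AT4G10260, next to HSP22.0, rose by 0.52 in Col-0 (limma adjusted p = 0.0229).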

How the data were processed

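The submitters' processing notes name RMA and Affymetrix Expression Console 1.3, with which the authors made the deposited log2 values. RMA removes background, brings arrays to 1 distribution and reduces the probes of a set to 1 value, so a shift common to most transcripts is lost. The array's design and genome build were not stated, and scanner files were not used here.

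Of 38408 probe sets, 16722 had 1 listed gene, 759 several and 20927 none. Names came from a RefSeq gene table (TAIR10.1), matched by 16574 probe sets, which also gave the flanking genes. For the 146 genes with several probe sets the one with the highest mean was kept, giving 16550 genes. Group means were fitted over the 12 arrays together in R 4.3.3 by limma 3.58.1 (lmFit, eBayes). Residual degrees of freedom were 8, prior ones 3.89 and the prior SD 0.204. P-values are two-sided and Benjamini-Hochberg adjusted over all genes, called under 0.05. The fit was tested on simulated data. The number of arrays, 3 per group, limits the precision.

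The 8 genes and all gene lists were chosen with earlier results of these data known. Named were the 8 genes, list genes called in a comparison (up to the 4 largest differences), Hsp70-2, and the 8 genes most like the 8 in pattern. Genes named because they were not called, and flanking genes, were chosen after their values were seen. The labels call the replicates biological, and name no batch. Alternatives were a replicate block, other scalings, a filter on dim genes, array weights, another variance prior, only the arrays compared, every probe set, and leaving out arrays.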

Additional observations from a re-analysis of the deposited data

Results flagged for a closer look

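The difference of lincomycin responses, mutant minus wild type, was past the limma threshold for 7 genes of the other lists and 4 of the 8 small heat shock protein genes. Over all genes, 4.01% were called higher and 2.95% lower. The difference was 2.76 for HSP17.6C, 2.88 for AT1G54050, 1.38 for HSP22.0 and 2.06 for AT1G52560. These 4 values are a description, given without an adjusted p, because the genes were drawn together with the mutant arrays known. The difference was above 0 for all 8, and the number past the threshold ran from 1 to 7 when 1 array was left out.

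Among seed maturation genes M17 had a difference of responses of -2.81 (limma adjusted p = 0.045) and LEA18 one of 1.36 (limma adjusted p = 0.0362). UPOX, a mitochondrial stress gene, had -2.57 (limma adjusted p = 0.04). These 3 calls ended without 9 or 10 of the 12 arrays left out singly, with adjusted p up to 0.115 for M17, 0.0926 for LEA18 and 0.0944 for UPOX. For M17 and UPOX every untreated gun1-101 array already stood above every untreated Col-0 array.

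The 4 leaf and cotyledon markers, all genes of photosynthesis, had differences of responses of 3.57 for the antenna gene LHCB4.2 (limma adjusted p = 0.00011), 1.50 for the antenna gene LHCB4.1 (limma adjusted p = 0.00103), 1.71 for the phosphoribulokinase gene PRK (limma adjusted p = 0.0105) and 0.79 for the Rubisco activase gene RCA (limma adjusted p = 0.0221). The call of RCA ended without 6 of the 12 arrays left out singly (adjusted p up to 0.0627). The share of these shifts in the differences of the small heat shock protein genes was not tested.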

How the results depend on the processing

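The 8 small heat shock protein genes were drawn together because they stood high on the lincomycin-grown mutant arrays, so their counts in comparisons that use those arrays, and how steady the counts are, describe that choice. Leaving out 1 array gave 7 to 8 called in gun1-101 and between genotypes with lincomycin. The causes of the changes below were not tested, beyond the fewer arrays of some settings. In Col-0, 1 of the 8 was called with only the arrays compared, with every probe set tested, or without both set-aside Col-0 arrays, and 0 to 2 when 1 array was left out. The difference of responses was called for 7 with array weights and 1 with every probe set tested, and for 1 to 7 without 1 array. Without lincomycin the count was 0 under each setting. Signs changed when 1 array was left out for AT2G19310 in Col-0 (from -0.30 to 0.20, with 0.06 without lincomycin replicate 1) and between genotypes without lincomycin (from -0.02 to 0.48, and -0.02 without both set-aside arrays), AT1G52560 between genotypes without lincomycin (from -0.15 to 0.47), AT4G21870 in gun1-101 (from -0.59 to 0.22) and between genotypes with lincomycin (from -0.15 to 0.29), and AT5G54660 between genotypes with lincomycin (from -0.22 to 0.14), none of them called with all arrays. AT2G29500, not called with all arrays, was called higher in gun1-101 than in Col-0 with lincomycin under 4 settings that kept all arrays (adjusted p from 0.0341 to 0.0425) and without any 1 of 3 arrays, and AT4G21870 was called lower in Col-0 with array weights (-1.14) and without both set-aside arrays (-1.36). Of 51 named calls with a test, 27 were kept whichever single array was left out and 24 ended at least once.

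Of the 23 other heat and chaperone genes, those called in Col-0 numbered 9 with array weights and 2 to 6 without 1 array. In gun1-101 they numbered 5 to 9 without 1 array. Between genotypes without lincomycin they numbered 6 with array weights, 2 with only the arrays compared, 3 without both set-aside Col-0 arrays and 0 to 2 without 1 array. With lincomycin they numbered 12 with array weights, 4 with only the arrays compared and 2 to 10 without 1 array, and for the difference of responses 4 with array weights, 3 without both set-aside arrays and 0 to 2 without 1 array.

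Over all genes, calls in Col-0 numbered 2374, against 4863 with array weights, 1067 with only the arrays compared, 4286 with every probe set, 4787 without both set-aside Col-0 arrays and 1356 to 3377 without 1 array. In gun1-101 they numbered 3384, against 5682, 5789 with every probe set, 5141 without both set-aside arrays and 1964 to 4289 without 1 array. Without lincomycin 3 genes were called between genotypes, against 1 with the replicate block, 1998 with array weights, 5 with every probe set, 2854 without both set-aside arrays and 0 to 1054 without 1 array. With lincomycin 1585 were called, against 4385, 2582, 4088 and 748 to 2464, and for the difference of responses 1153, against 5536 with array weights, 5378 without both set-aside arrays and 379 to 3876 without 1 array.

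Correlations of deviations from group means between same-numbered arrays ran from 0.007 to 0.439 for replicate 1. They ran from -0.298 to 0.252 for replicate 2 and from -0.192 to 0.39 for replicate 3. Differently numbered arrays were not compared, so these values do not settle whether the replicates pair. With the replicate block 2, 8, 0, 8 and 6 of the 8 genes were called in the 5 comparisons, against 2, 8, 0, 8 and 4. The number of arrays, and the low signal of HSP22.0 in controls, limit the precision.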

Other observations

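Some small heat shock protein genes are also made in maturing seeds, and 4 of 18 listed seed maturation genes were measured. PAP85, a seed storage protein gene of the vicilin type, rose with lincomycin in both genotypes, by 2.42 in Col-0 (SE 0.34, limma adjusted p = 0.000634) and by 1.86 in gun1-101 (SE 0.34, limma adjusted p = 0.00341). M17 rose by 2.43 in Col-0 (SE 0.53, limma adjusted p = 0.00993), with -0.38 in gun1-101 (limma adjusted p = 0.636). Its untreated gun1-101 arrays, at 8.72 to 8.84, already stood above the Col-0 controls, at 5.45 to 7.93. That difference of 2.09 was not called (limma adjusted p = 0.303), nor was the one with lincomycin, -0.72 (limma adjusted p = 0.432). LEA18, a late embryogenesis abundant protein gene, rose by 1.98 in gun1-101 (SE 0.24, limma adjusted p = 0.000402), with 0.62 in Col-0 (limma adjusted p = 0.107). M10 was not called in any comparison. The mean log2 level of the 4 genes was 5.22 to 5.89 in the Col-0 controls, 6.72 to 7.27 in Col-0 with lincomycin, 6.45 to 6.58 in the gun1-101 controls and 7.17 to 7.71 in gun1-101 with lincomycin. LEA18 correlated with the mean profile of the 8 small heat shock protein genes at 0.843 over the 12 arrays, but at -0.664 in deviations from the group means.

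Of 8 listed mitochondrial stress genes 2 were measured. UPOX rose by 2.83 with lincomycin in Col-0 (SE 0.47, limma adjusted p = 0.00198), with 0.26 in gun1-101 (limma adjusted p = 0.721). Its untreated gun1-101 arrays, at 8.72 to 9.06, already stood above the Col-0 controls, at 5.56 to 8.14. That difference of 2.27 was not called (limma adjusted p = 0.235), nor was the one with lincomycin, -0.30 (limma adjusted p = 0.74). NDB2, an alternative NADH dehydrogenase of mitochondria, was lower by -0.52 in gun1-101 than in Col-0 with lincomycin (limma adjusted p = 0.0462), a call that ended without 9 of the 12 arrays left out singly. Their mean level was 6.94 to 8.44 in the Col-0 controls, 9.02 to 9.24 in Col-0 with lincomycin, 8.69 to 8.91 in the gun1-101 controls and 8.69 to 8.78 in gun1-101 with lincomycin.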
